A study of Mus musculus with 2 samples.

Results

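The 81 genes described here encode the proteins of the cytosolic ribosome in 4T1, a mouse mammary carcinoma line, and were chosen by symbol and not by their values. They are the protein-coding genes of the deposited table whose symbols start with Rpl or Rps followed by a digit, together with Rpsa, Rplp0, Rplp1 and Rplp2. Ribosomal S6 kinase genes (10 symbols starting with Rps6k), Rps19bp1, Rps27a and 4 protein-coding genes with a pseudogene suffix were left out. Of the 19498 genes in the table, 49 members belong to the large and 32 to the small ribosomal subunit, and 4 of them are paralogs whose symbols end in l. Rps27rt, a retrogene copy of Rps27, is a member by its symbol.

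Total RNA depleted of ribosomal RNA was sequenced in 2 libraries, 1 from 4T1 cells given LY500307, a drug that activates estrogen receptor beta, and 1 from control-treated cells. The study asked which RNAs differ between these cells. No dose, duration or control agent is stated in the labels, and each library stands for 1 preparation of 1 cell line. No difference below could be checked against replicates. Whole reads were recovered from the deposited signal, which is a rescaled read count, and summed to 15104003 in the LY500307 library and 14541874 in the control library. The epithelial genes Epcam, Cdh1, Krt8, Krt18 and Krt19 had 1434 to 14450 reads in the LY500307 library and 1730 to 17073 in the control library. Ptprc, a marker of leucocytes, had 4 reads in the LY500307 library and 2 in the control library, and Pecam1, a marker of endothelium, 4 and 6. The fibroblast gene Pdgfra had 285 reads in the LY500307 library and 271 in the control library, and Col1a1 24 and 28.

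The cytosolic ribosome joins a small subunit, which reads the messenger RNA, to a large subunit, which forms the peptide bond. Most ribosomal proteins are present in a single copy per ribosome, and their genes are known for tightly coordinated expression. Their transcripts start with a run of pyrimidines, the 5′ terminal oligopyrimidine (TOP) motif, through which mTORC1 and LARP1 control their translation. Mouse and human genomes also carry many processed pseudogenes of these genes, which makes their reads hard to place.

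Ribosomal protein transcripts were lower by small amounts in the LY500307 library, and more of them were lower than among all genes. A gene was described by the log2 ratio of its LY500307 value to its control value, after a pseudocount of 1.03, where its higher value reached a floor of 33.0. Of the 81 members, 79 reached the floor, all but Rpl24 and Rpl36al. Their median log2 ratio was −0.14, against −0.016 for all 11384 genes that reached it. Of these members 59 (74.7%) lay below 0, against 52.8% of all genes. A ratio of 1.2-fold was reached by 18 members on the lower side (22.8%, against 15.9% of all genes) and by 2 on the higher side (2.53%, against 10.5%). No member was 1.5-fold apart, against 1.97% of all genes lower and 1.8% higher. Just inside the 1.2-fold mark stood Rps10, 1.203-fold lower, and just outside stood Rpl27, 1.18-fold lower. After removal of a trend in transcript GC content and length, described further on, 5 members were at least 1.2-fold lower (6.33%), against 8.28% of all genes. In bulk libraries, fewer cells of a type and less RNA per cell cannot be told apart.

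Of 417 other genes with 10000 reads or more over both libraries, 55.9% lay below 0, 11.3% were lower by 1.2-fold or more and 4.08% higher, with a median log2 ratio of −0.028. After removal of the trend 61.6% of these abundant genes lay below 0, close to the 63.3% of members. The median of the abundant genes was then −0.027, against −0.064 for the members. Of the abundant genes 13 (3.12%) were then at least 1.2-fold lower and 5 higher, against 6.33% of members lower and 2.53% higher. At 1.1-fold, 14.1% of the abundant genes were lower and 4.32% higher, against 25.3% and 8.86% of members. Members thus passed both marks more often, but they were held only to the floor and not to 10000 reads. The 2 members past 1.2-fold on the higher side were Rps2 and Rpl29. Rps2 had 1112 reads and Rpl29 had 90 in the LY500307 library, and most of their joint reads lay under near-identical copies, described further on. Of the 50 members whose copies held under 10% of reads, 8% were at least 1.2-fold lower and 0% higher with the trend removed. Counting error was small for most members, and the exact 95% Clopper-Pearson interval of the fold lay below 1 for 50 members, above 1 for 13 and across 1 for 16. Among all genes it lay below 1 for 23.7% and above 1 for 18.1%. Whether an interval leaves out 1 depends on the number of reads, which is high in most members, so these shares do not set the family against all genes. These intervals cover counting error only, and without molecular identifiers several reads may stem from 1 molecule.

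Summed over the family, the reads of the members made up 6.45% of all reads in the LY500307 library (exact binomial 95% interval 6.44 to 6.46) and 6.93% in the control library (6.92 to 6.95). The share in the LY500307 library was thus 0.930 of that in the control library. The large subunit held 3.88% of reads in the LY500307 library and 4.22% in the control library. The small subunit held 2.57% in the LY500307 library and 2.72% in the control library.

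**Figure D1:**
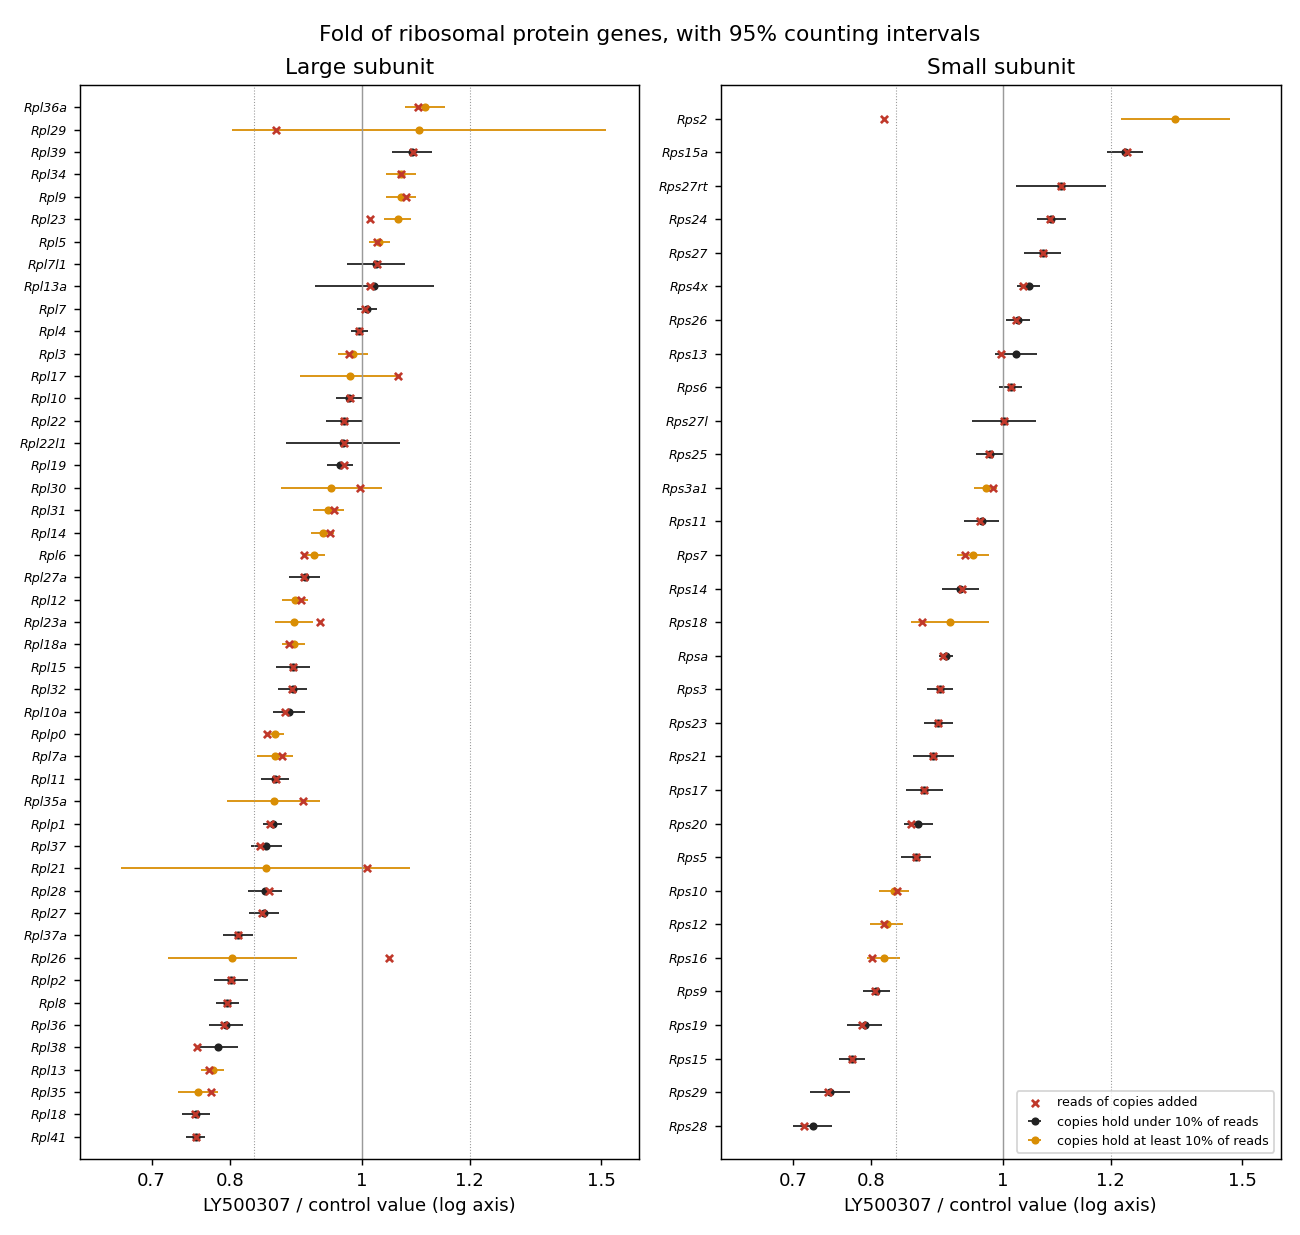
Fold of ribosomal protein genes at or above the floor, LY500307 over control value on a log axis, with large subunit genes on the left and small subunit genes on the right. Dots with bars are the fold and its 95% counting interval, orange where near-identical copies held at least 10% of reads, and crosses are the fold with the reads of the copies added. The dotted lines mark 1.2-fold, which 18 genes passed on the lower and 2 on the higher side. The crosses of Rps2, Rpl26, Rpl29, Rpl21, Rpl17 and Rps13 lie on the other side of 1 from their dots.

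The subunits differed little from each other. The large subunit had a median log2 ratio of −0.17, with 37 of 47 members below 0, 10 at least 1.2-fold lower and 0 at least 1.2-fold higher. The small subunit had a median of −0.12, with 22 of 32 below 0, 8 at least 1.2-fold lower and 2 higher. These counts are 78.7%, 21.3% and 0% in the large subunit and 68.75%, 25% and 6.25% in the small subunit. Over all genes the shares were 52.8%, 15.9% and 10.5%. The difference of the medians was −0.049. That difference did not keep its sign. With the reads of near-identical copies added, the medians were −0.14 for the large and −0.15 for the small subunit, a difference of 0.0082. The large subunit held 60.2% of member reads in the LY500307 library and 60.8% in the control library, and 60.8% and 60.9% with copies added.

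Among large subunit genes the lowest ratio was that of Rpl41, whose very short protein sits at the interface of the subunits. Rpl41 had 27974 reads in the LY500307 library and 34914 in the control library, 1.33-fold lower (95% counting interval 1.30 to 1.35). Folds were taken on the deposited scale, on which 1 read was worth 0.970 in the LY500307 library and 1.03 in the control library, so they differ from the ratio of the reads. Rpl18, one of the genes mutated in Diamond-Blackfan anaemia, had 12106 reads in the LY500307 library and 15097 in the control library, 1.32-fold lower (1.29 to 1.36). Rpl35, whose protein lies at the exit of the peptide tunnel, had 6172 reads in the LY500307 library and 7673 in the control library, 1.32-fold lower (1.28 to 1.37).

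The intervals of these 3 genes overlap. Rpl13 had 19053 reads in the LY500307 library and 23099 in the control library, 1.29-fold lower (1.26 to 1.31). Rpl38, which in mouse embryos is needed for the translation of a subset of Hox mRNAs, had 6242 reads in the LY500307 library and 7496 in the control library, 1.28-fold lower (1.23 to 1.32). Rpl36 had 8716 reads in the LY500307 library and 10329 in the control library, 1.26-fold lower (1.22 to 1.30). Rpl36 had the highest GC content of the family, 60.8%, and its log2 ratio of −0.33 turned to 0.086 once that trend was removed.

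The highest large subunit ratios were small. Rpl36a, whose protein lies near the tRNA exit site, had 7250 reads in the LY500307 library and 6136 in the control library, 1.11-fold higher (1.08 to 1.15). Rpl39, a protein of the peptide tunnel, had 7588 reads in the LY500307 library and 6564 in the control library, 1.09-fold higher (1.05 to 1.13). Rpl34 had 12735 reads in the LY500307 library and 11217 in the control library, 1.07-fold higher (1.04 to 1.097). Rpl29 had 90 reads in the LY500307 library and 77 in the control library, with a fold of 1.1 and an interval from 0.803 to 1.51. No large subunit gene at or above the floor reached 1.2-fold on the higher side.

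Small subunit genes held both ends of the family's range. Rps28, whose protein lies in the head near the mRNA exit, had 6295 reads in the LY500307 library and 8187 in the control library, 1.38-fold lower (1.34 to 1.43), the lowest ratio of all members. Rps29, another head protein, had 6239 reads in the LY500307 library and 7878 in the control library, 1.34-fold lower (1.30 to 1.39). Rps15, whose tail reaches the decoding centre, had 14394 reads in the LY500307 library and 17496 in the control library, 1.29-fold lower (1.26 to 1.32). These 3 genes encode proteins of the same domain, the head of the subunit.

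Rps19, the gene most often mutated in Diamond-Blackfan anaemia, had 7931 reads in the LY500307 library and 9441 in the control library, 1.26-fold lower (1.23 to 1.30). Rps9, a protein of the mRNA entry channel, had 14103 reads in the LY500307 library and 16465 in the control library, 1.24-fold lower (1.21 to 1.27). Rps16, whose tail contacts the tRNA in the P site, had 9528 reads in the LY500307 library and 10986 in the control library, 1.22-fold lower (1.19 to 1.26). Of these 6 lowest small subunit genes, only Rps9 belongs to the body and not to the head.

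The other end was led by genes of the body and platform. Rps15a had 9876 reads in the LY500307 library and 7562 in the control library, 1.23-fold higher (1.19 to 1.27). Its copies held 1.68% of joint reads, and with them it was 1.23-fold higher. Rps24, which like Rps15a is on the list of Diamond-Blackfan genes, had 14277 reads in the LY500307 library and 12388 in the control library, 1.09-fold higher (1.06 to 1.11). Rps27rt had 1451 reads in the LY500307 library and 1238 in the control library, 1.104-fold higher (1.02 to 1.19). Its coding sequence is identical to that of Rps27, so reads of the coding part cannot be told apart between them. Rps2 had 1112 reads in the LY500307 library and 782 in the control library, 1.34-fold higher (1.22 to 1.47), but its copies reverse this, as given below.

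The proteins of the head were compared with those of the body and platform, from lists of members written from the structure of the subunit. All 13 listed head genes lay below 0, 7 of them by 1.2-fold or more, with a median log2 ratio of −0.27 and a range from −0.47 to −0.031. Of 17 body and platform genes, 9 lay below 0, 1 was at least 1.2-fold lower and 2 were higher, with a median of −0.0030. Over all genes the shares were 52.8% below 0 and 15.9% at least 1.2-fold lower. Summed reads of the head genes were 127883 in the LY500307 library and 143335 in the control library, a fold of 0.840 (0.834 to 0.846). Summed reads of the body and platform genes were 256049 in the LY500307 library and 248105 in the control library, a fold of 0.972 (0.966 to 0.977). Copies are not in these sums, and Rps2, 1 of the 2 higher genes, had a joint value with its copies of 0.817. The lists hold no protein that the symbol rule leaves out. Of such genes, Rps27a, which encodes a protein of the head, stood at a log2 ratio of 0.84, above all listed head and body genes. Rack1, on the head, stood at −0.12, and Fau, which encodes a body protein, at −0.44, below all listed body genes. Rps27a and Fau thus went against the split.

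The split between head and body was narrower, in the same direction, after the GC and length trend was removed. The head median was then −0.13 with 12 of 13 genes below 0. Of these, 3 were at least 1.2-fold lower, against 8.28% of all genes, namely Rps16, Rps28 and Rps20, the last scored on an unusually long transcript. The body and platform median was 0.033 with 4 of 17 below 0, and 0 of the 17 were lower by 1.2-fold. With the trend removed on the longest transcripts, the head genes Rps10 (0.050), Rps15 (0.057) and Rps25 (0.019) turned above 0 and Rps18 (−0.074) below. The body and platform genes Rpsa (−0.10), Rps7 (−0.054), Rps13 (−0.053) and Rps24 (−0.013) turned below 0. The counts below 0 thus depend on which transcript is taken. The median GC content of the transcripts was 52.8% for the head and 51.8% for the body and platform. With copies added the medians were −0.26 for the head, all 13 below 0, and −0.025 for the body and platform, 10 of 17 below 0. In the head 6 genes were then at least 1.2-fold lower and 0 higher, and in the body and platform 2 lower and 1 higher. With the trend removed Rps27a stood at 0.83, Rack1 at −0.10 and Fau at −0.18. With 1 library per group the difference between the lists was not tested.

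Within the large subunit, all 4 genes of the P stalk, the arm that recruits translation factors, lay below 0 (52.8% of all genes), with a median of −0.22. Rplp0, the base of the stalk, had 35564 reads in the LY500307 library and 38775 in the control library, 1.16-fold lower (1.14 to 1.17). Rplp1 had 30123 reads in the LY500307 library and 33003 in the control library, 1.16-fold lower (1.15 to 1.18). Rplp2, its partner in the stalk dimer, had 8823 reads in the LY500307 library and 10373 in the control library, 1.25-fold lower (1.21 to 1.28). Rpl12, which binds at the stalk's foot, had 15172 reads in the LY500307 library and 15993 in the control library, 1.12-fold lower (1.09 to 1.14). The median of the 4 was −0.10 with the trend removed, and the log2 ratio of Rplp1 was 0.037 with the trend removed and −0.22 without.

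Rpl5 and Rpl11, which carry the 5S RNA and in human and mouse cells bind the p53 inhibitor MDM2 when ribosome assembly fails, differed from each other. Rpl5 had 25772 reads in the LY500307 library and 23572 in the control library, 1.03 of the control value (1.01 to 1.05), and its log2 ratio of 0.042 turned to −0.098 with the trend removed. Rpl11 had 12897 reads in the LY500307 library and 14079 in the control library, 1.16-fold lower (1.13 to 1.19), and its log2 ratio of −0.21 became −0.13. Among 8 genes of the peptide exit, 7 lay below 0, 2 of them by 1.2-fold or more, with a median of −0.068, against 52.8% below 0 and 15.9% lower by 1.2-fold among all genes. With copies added 5 lay below 0, and with the trend removed 5 lay below 0 and 0 were lower by 1.2-fold. Rpl35 and Rpl26 were its lowest and Rpl39 and Rpl17 its highest. Rpl17 had 1089 reads in the LY500307 library and 1046 in the control library, a fold of 0.980 (0.90 to 1.07).

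The genes mutated in Diamond-Blackfan anaemia, a red cell disorder of ribosome shortage, cut across both subunits. Of 20 such genes, 14 lay below 0, 7 were at least 1.2-fold lower and 1 was higher, with a median of −0.20. These counts are 70%, 35% and 5%, against 74.7%, 22.8% and 2.53% of the whole family. Over all genes the shares were 52.8% below 0, 15.9% lower and 10.5% higher. With copies added the median was −0.16, with 13 genes below 0, 5 at least 1.2-fold lower and 1 higher. With the trend removed the median was −0.081, and 1 gene was at least 1.2-fold lower and 0 higher. Rps28 and Rps29 were the lowest and Rps15a and Rps24 the highest.

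The sequences at the starts of genes from both ends of the range show how far the TOP motif reaches among them. RefSeq start windows on GRCm38.p6 were available for 62 of the 81 members. Each window below runs from 20 bases before to 20 bases after the start of the annotated transcript, 5′ to 3′ on the gene's strand. Capitals mark the longest run of C and T that begins with C. Only some of the windows at the ends of the range are shown, and 4 of those shown have a run of 8 or more. They are Rpl35 at chr2:39005112-39005151 (minus strand), Rpl18 at chr7:45718051-45718090 (plus strand), Rpl34 at chr3:130730318-130730357 (minus strand) and Rps15a at chr7:118116128-118116167 (minus strand). Rps28 at chr17:33824543-33824582 (minus strand) and Rps15 at chr10:80292411-80292450 (plus strand) have shorter runs. Among genes not shown, the longest run had 3 bases in Rpl41 and 7 in Rps19, both from the lower end. At the higher end it had 8 in Rpl39, 6 in Rps2, 6 in Rps27rt and 5 in Rpl36a. A run was counted anywhere in the window. That of Rps15a, 10 bases from position −15, lies wholly before the annotated start, and that of Rpl34 begins at −17.
Rpl35: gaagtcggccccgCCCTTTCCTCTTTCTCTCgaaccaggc
Rpl18: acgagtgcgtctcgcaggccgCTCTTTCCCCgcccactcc
Rps28: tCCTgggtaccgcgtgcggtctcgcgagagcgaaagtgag
Rps15: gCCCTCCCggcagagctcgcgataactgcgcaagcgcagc
Rpl34: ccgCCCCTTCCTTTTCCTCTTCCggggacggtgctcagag
Rps15a: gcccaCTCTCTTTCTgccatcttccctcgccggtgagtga

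The longest runs, 20 bases in Rpl34 and 18 in Rpl35, belong to a gene with a higher and a gene with a lower value in the LY500307 library. A run of 8 or more bases was found in 30 of the 62 members (48.4%), against 15.7% of 8483 genes with such a window. The 30 members at or above the floor with a run had a median log2 ratio of −0.089, with 20 below 0. The 30 without one had a median of −0.16, with 22 below 0. A match says only that these letters are in the window, and a shorter run does not show that a transcript lacks the motif, since start sites in these cells may differ from the annotated one.

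Other promoter motifs were counted over 300 bases on both strands, from 250 before to 50 after the start. CCGGAAG, the core site of ETS factors such as GABP, was present in 40.3% of member promoters and 22.0% of all. ATGGCGG, the core site of YY1, was present in 17.7% and 10.2%. GGGCGG, the core site of SP1, was present in 62.9% and 72.0%, and TATAAA in 11.3% and 7.91%.

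Some reads of the family may be listed under near-identical copies elsewhere in the genome. No gene family other than ribosomal proteins was searched for copies. Coding sequences of the members were matched to pseudogenes and gene models of the table, and 381 copies with at least 90% identity over at least 80% of the coding sequence were found for 75 of the 81 members. They held 1.42% of all reads in the LY500307 library and 1.55% in the control library. In 31 members the copies held at least 10% of the joint reads of gene and copies, and in 10 members more than 50%. Since no source states how the authors assigned reads with several matches, the values of these members are uncertain. The same holds for Rps27 and Rps27rt, which are identical in coding sequence. Both count as without copies because members were not matched to each other.

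The clearest cases are those in which the direction turns. Rps2, a protein of the mRNA entry channel, had 97.9% of its joint reads under 29 copies. Its copy Rps2-ps10 had 28487 reads in the LY500307 library and 36191 in the control library, and Rps2-ps13 had 10224 reads in the LY500307 library and 8842 in the control library. The joint value of Rps2 and its copies was 0.817 of the control value (0.806 to 0.828), against 1.34 for its own row.

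Rpl26 had 613 reads in the LY500307 library and 719 in the control library, 1.25-fold lower (1.12 to 1.39). Its copy Gm15772 had 16395 reads in the LY500307 library and 14589 in the control library. Copies held 95.9% of the joint reads, and the joint value was 1.05 of the control value (1.02 to 1.07).

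How little separates such a gene from its copy is shown by bases 147 to 206 of the coding sequences of Rpl26 and Gm15772 and bases 30 to 89 of those of Rps2 and Rps2-ps13, from GENCODE M21 on GRCm38. Capitals mark the bases that differ within each pair. Over the whole coding sequence, 2 of 438 bases differ in the first pair and 7 of 882 in the second. The genes lie at chr11:68901583-68906989, chr5:3236431-3236868, chr17:24718116-24721929 and chrX:52898588-52899469, all on the plus strand, and the copies are annotated as processed pseudogenes.
Rpl26: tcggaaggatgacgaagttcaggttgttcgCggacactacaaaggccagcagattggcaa
Gm15772: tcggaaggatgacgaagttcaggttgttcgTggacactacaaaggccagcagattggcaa
Rps2: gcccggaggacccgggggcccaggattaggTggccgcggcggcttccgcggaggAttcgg
Rps2-ps13: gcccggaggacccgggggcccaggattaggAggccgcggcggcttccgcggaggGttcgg

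Other members had few reads of their own. Rpl29 had 98.3% of its joint reads under 14 copies, and the joint value was 0.864 of the control value (0.830 to 0.899), against 1.1 for its own row. Rpl21 had 129 reads in the LY500307 library and 143 in the control library, and 94.5% of its joint reads under 42 copies, with a fold of 0.849 (0.664 to 1.09) for its own row and 1.01 (0.953 to 1.07) for the joint value. Rpl30 had 1073 reads in the LY500307 library and 1064 in the control library, and its copy Gm12191 had 10028 reads in the LY500307 library and 9435 in the control library. In Rpl17 the copies held 83.0% of joint reads, in Rps18 75.3% and in Rpl35a 56.5%.

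Rpl24, below the floor, had 30 reads in the LY500307 library and 15 in the control library, a fold of 1.88 with an interval from 0.982 to 3.77. Its copies held 93.7% of joint reads, and the joint value was 1.24 of the control value (1.07 to 1.44). Over the 50 members whose copies held under 10% of reads, of which all reached the floor, the median log2 ratio was −0.16, with 37 below 0, 12 at least 1.2-fold lower and 1, Rps15a, higher. These counts are 74%, 24% and 2%, against 52.8%, 15.9% and 10.5% of all genes. The 50 include Rps27 and Rps27rt, whose reads cannot be told apart in the coding part. Over the 79 members with the reads of copies added, the median was −0.14, with 58 below 0.

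**Figure D2:**
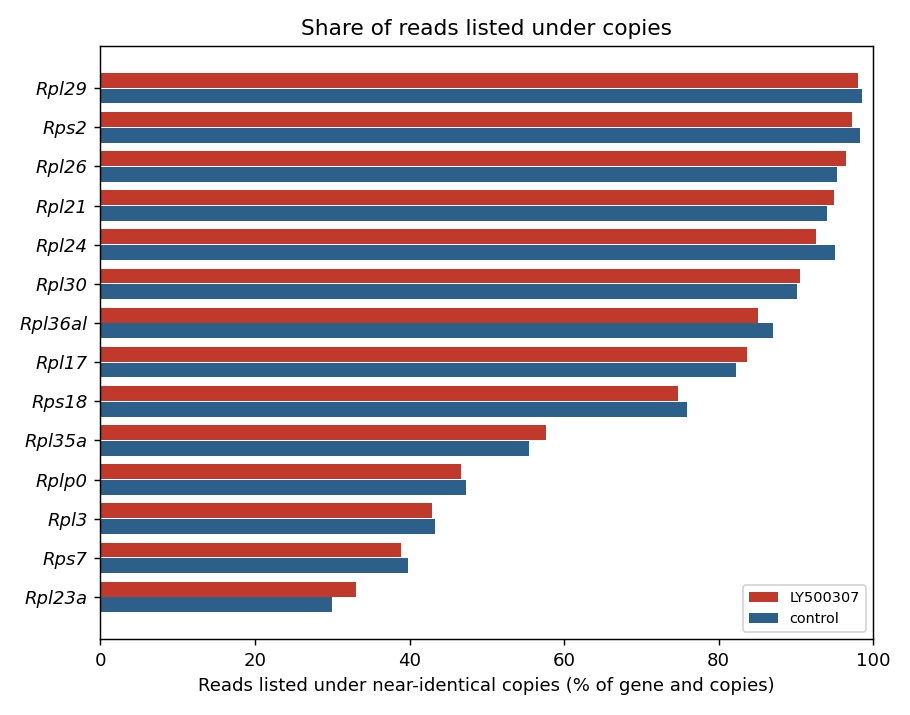
Reads listed under near-identical copies as a percent of the reads of gene and copies, for the 14 members whose copies held more than 30% over both libraries, with the LY500307 library above the control library in each pair of bars. Within each gene the bars are of similar length, and in Rpl29, Rps2 and Rpl26 they lie above 95%.

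The paralogs that end in l stayed close to their parents in ratio and far below them in level. Rpl22l1 had 855 reads in the LY500307 library and 832 in the control library, a fold of 0.968 (0.878 to 1.07). Its parent Rpl22 had 8008 reads in the LY500307 library and 7768 in the control library, a fold of 0.971 (0.941 to 1.002). Rpl22l1 made up 9.65% of the reads of the pair in the LY500307 library and 9.67% in the control library. In mouse cells Rpl22 is known to repress Rpl22l1.

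Rpl7l1 had 3366 reads in the LY500307 library and 3095 in the control library, a fold of 1.02 (0.975 to 1.08). Its parent Rpl7 had 27579 reads in the LY500307 library and 25755 in the control library, a fold of 1.01 (0.991 to 1.03). Rpl7l1 made up 10.9% of the pair in the LY500307 library and 10.7% in the control library. The intervals of both folds include 1.

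Rps27l, in mouse and human cells a target of p53, had 2769 reads in the LY500307 library and 2604 in the control library, a fold of 1.001 (0.949 to 1.06). Its parent Rps27 had 8422 reads in the LY500307 library and 7414 in the control library, 1.07-fold higher (1.04 to 1.104). Rps27l made up 24.7% of the pair in the LY500307 library (23.9 to 25.6) and 26.0% in the control library (25.1 to 26.9). Per kilobase, Rps27 stood 4.40 times as high as Rps27l in the LY500307 library and 4.12 times in the control library. Of the 5 pairs measured, including Rps27rt, this was the one with the largest level of paralog relative to parent.

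Rpl36al, the autosomal relative of the X-linked Rpl36a, was below the floor, with 23 reads in the LY500307 library and 20 in the control library and a fold of 1.08 (0.569 to 2.08). It made up 0.316% of the reads of its pair in the LY500307 library and 0.325% in the control library. A single copy, Rpl36a-ps3, had 131 reads in the LY500307 library and 134 in the control library. Rps4l, listed with 1 read in each library, is not protein-coding in the annotation used, and Rpl3l, Rpl10l and Rpl39l are absent from the deposited table. The 3 paralogs at or above the floor had a median log2 ratio of 0.0017, against −0.16 for the 76 other members. With the GC and length trend removed these medians were −0.042 for the paralogs and −0.067 for the others.

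The coding sequences tell how well reads of a pair can be separated. Rps27l and Rps27 differ at 61 of 255 coding bases (76.1% identity), Rpl36al and Rpl36a at 39 of 321 (87.9%), and Rps27rt and Rps27 at 0 of 255. Identity was 66.9% for Rpl22l1 and Rpl22 and 50.1% for Rpl7l1 and Rpl7. The whole coding sequences of Rps27l (gene at chr9:66946086-66949516, plus strand) and Rps27 (chr3:90212522-90213651, minus strand) and the first 150 coding bases of Rpl36al (chr12:69182731-69184083, minus strand) and Rpl36a (chrX:134585654-134588062, plus strand) follow from GENCODE M21 on GRCm38. Capitals mark the bases that differ within the pair.
Rps27l: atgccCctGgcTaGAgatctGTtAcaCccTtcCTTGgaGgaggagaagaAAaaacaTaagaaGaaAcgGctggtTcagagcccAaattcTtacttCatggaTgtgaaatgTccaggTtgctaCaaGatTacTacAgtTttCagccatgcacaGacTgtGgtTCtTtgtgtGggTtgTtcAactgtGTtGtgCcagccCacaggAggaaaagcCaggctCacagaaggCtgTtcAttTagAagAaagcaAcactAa
Rps27: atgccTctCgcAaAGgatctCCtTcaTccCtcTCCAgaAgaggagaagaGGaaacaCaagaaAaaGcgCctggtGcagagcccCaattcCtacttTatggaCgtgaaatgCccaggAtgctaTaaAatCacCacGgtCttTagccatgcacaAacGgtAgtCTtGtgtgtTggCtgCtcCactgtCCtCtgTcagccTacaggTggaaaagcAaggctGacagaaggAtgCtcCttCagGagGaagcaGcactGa
Rpl36al: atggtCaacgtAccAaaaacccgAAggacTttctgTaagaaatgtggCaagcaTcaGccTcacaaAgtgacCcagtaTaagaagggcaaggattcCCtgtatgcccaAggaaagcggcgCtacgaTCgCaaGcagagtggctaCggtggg
Rpl36a: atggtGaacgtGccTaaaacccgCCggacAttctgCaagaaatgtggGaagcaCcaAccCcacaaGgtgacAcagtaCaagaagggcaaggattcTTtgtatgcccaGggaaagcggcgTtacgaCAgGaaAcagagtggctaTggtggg

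Of the 39 bases that differ between Rpl36al and Rpl36a, 23 fall in the stretch shown.

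Levels of the members were compared per kilobase of transcript, on the deposited scale. Rpl41 had the highest level per kilobase, 62114 in the LY500307 library and 82338 in the control library. With copies added, the median of the large subunit was 19069 per kilobase in the LY500307 library and 20326 in the control library. That of the small subunit was 17295 in the LY500307 library and 21512 in the control library. These medians cover 45 large and 30 small subunit genes at or above the floor, without Rps27rt and the paralogs ending in l. Each may fall on a different gene in each library, so they give no fold. Gene by gene, the median log2 ratio of the small subunit with copies added was −0.15. The upper quartile was 1.71 times the lower for the large subunit and 1.88 times for the small subunit in the LY500307 library, and 1.82 and 1.88 times in the control library.

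Among members at or above the floor, Rpl13a, a large subunit protein, had the lowest level with copies added, at 765 per kilobase in the LY500307 library and 754 in the control library. It had 809 reads in the LY500307 library and 746 in the control library, and its copy held 2.26% of joint reads. Copies were sought only among genes of the deposited table, so reads with several matches that were left out of it would be missing here. The order of the levels was nearly the same in both libraries, with a Spearman correlation across the 79 genes of 0.97. Lengths are those of 1 annotated transcript, and Rps20 at 3706 bases and Rpl5 at 2045 are among the longest, so their levels per kilobase are low by construction.

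Members with GC-rich transcripts were lower in the LY500307 library than those with GC-poor transcripts, as among all genes. Across the 79 members, which are not replicates, the Spearman correlation of the log2 ratio with GC content was −0.51, against −0.60 across 11370 genes. Of the 27 members with the lowest GC content, 40.6% to 49.5%, 15 lay below 0 and the median was −0.029, against 0.095 for other genes in that range. Of the 26 in the middle, 50% to 53.6%, 20 lay below 0 and the median was −0.17, against −0.045 for other genes. Of the 26 with the highest, 53.8% to 60.8%, 24 lay below 0 and the median was −0.24, against −0.19 for other genes. The members' median lay below that of other genes in each of the 3 ranges.

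**Figure D3:**
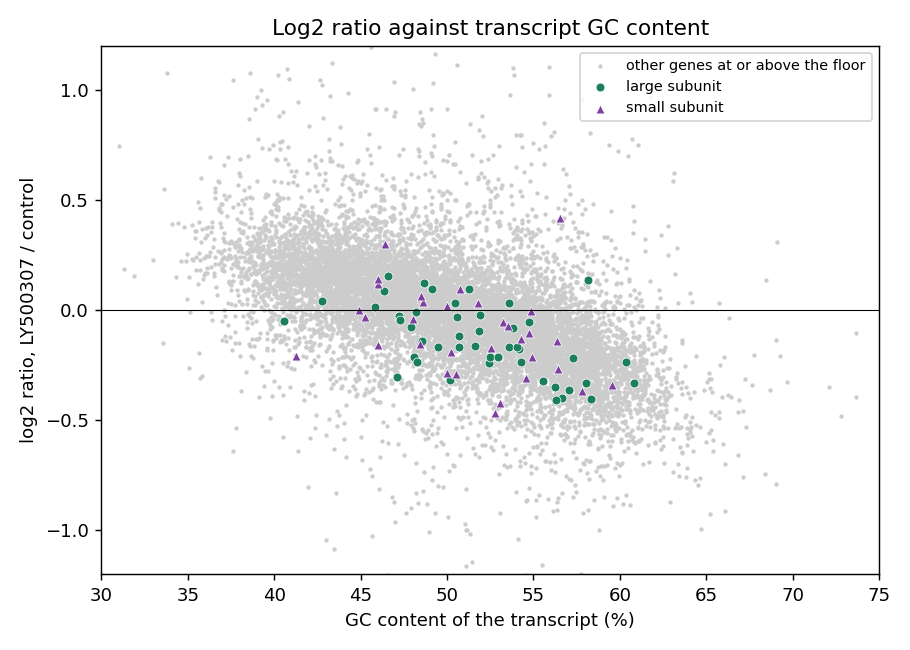
Log2 ratio of LY500307 to control value against the GC content of the transcript, with large subunit genes as green circles, small subunit genes as purple triangles and all other genes at or above the floor in grey. Genes beyond the axes are not drawn. The members follow the falling cloud of all genes, with a Spearman correlation of −0.51 across members and −0.60 across all genes.

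A trend in GC content and length was fitted over all nuclear genes at or above the floor and removed. The members' median was then −0.064, against −0.016 for all genes, and 50 of 79 (63.3%) lay below 0, against 54.4%. Past 1.2-fold on the higher side stood 2 members (2.53%), against 7.67% of all genes. The 5 on the lower side were Rps20, Rpl37a, Rps28, Rps16 and Rpl37, and the 2 were Rps2 and Rpl29, whose reads lie mostly under copies. Rps20 stood at −0.39 with the trend removed and −0.21 without, and Rps28 at −0.29 with the trend removed and −0.47 without. The transcript taken for Rps20, at 3706 bases, may not be its main one, so its value with the trend removed is uncertain. Rps15a stood at 0.25 and did not reach 1.2-fold.

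The median was −0.078 for the large subunit with the trend removed, 33 of 47 below 0, and −0.020 for the small subunit, 17 of 32 below 0. Members have short transcripts, with a median of 729 bases against 2740.5 for all genes that reached the floor. Only 318 other genes lay between the quartiles of the members in both GC content and length, and 211 of them lay below 0 with a median of −0.084 before the trend was removed. Of these 318 genes, 18.6% were at least 1.2-fold lower and 8.49% higher before the trend was removed.

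The median log2 ratios of lists of genes that work with the ribosome are read here beside the family's −0.14, which was −0.064 with the trend removed. Over all genes 52.8% lay below 0, 15.9% were at least 1.2-fold lower and 10.5% higher. Of the ribosomal proteins that the rule leaves out, Fau, which encodes a ubiquitin-like protein fused to a small subunit protein, had 10280 reads in the LY500307 library and 13124 in the control library, 1.36-fold lower (1.32 to 1.39). Rack1, a scaffold on the small subunit head, had 29564 reads in the LY500307 library and 30282 in the control library, a fold of 0.919 (0.905 to 0.934). Rps27a, which encodes ubiquitin fused to a small subunit protein, had 13304 reads in the LY500307 library and 7019 in the control library, and with 5 copies it was 1.65-fold higher (1.61 to 1.70).

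Other transcripts with a TOP motif, mostly translation factors, had a median of −0.027, with 10 of 17 below 0 (52.8% of all genes) and 0 past 1.2-fold. With the trend removed the median was −0.037, against −0.064 for the members. The lowest were Eif3f, a subunit of an initiation factor, with 3405 reads in the LY500307 library and 3700 in the control library (0.866 of the control value), and the elongation factor Eef2, with 75983 reads in the LY500307 library and 82550 in the control library (0.867). The highest were Eif3e, with 8477 reads in the LY500307 library and 7017 in the control library (1.14), and the nucleolar chaperone Npm1, with 40995 reads in the LY500307 library and 33982 in the control library (1.14).

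Of 41 ribosome biogenesis genes, 17 lay below 0, 1 was at least 1.2-fold lower and 2 were higher, with a median of 0.022. These counts are 41.5%, 2.44% and 4.88%, against 52.8%, 15.9% and 10.5% of all genes. Eif6, which keeps new large subunits from joining small ones, had 4563 reads in the LY500307 library and 5462 in the control library, 1.27-fold lower. Bop1, a factor of large subunit assembly, was next, with 1880 reads in the LY500307 library and 2090 in the control library (0.847). The helicase Ddx10 had 1629 reads in the LY500307 library and 1216 in the control library, 1.26-fold higher, and Utp14a, a processome factor, had 1026 reads in the LY500307 library and 779 in the control library, 1.24-fold higher. With the trend removed 0 of the 41 were past 1.2-fold.

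RNA polymerase I and its factors, which make the ribosomal RNA, had 7 of 14 genes below 0 and a median of 0.0056. The lowest were Taf1c, with 323 reads in the LY500307 library and 359 in the control library (0.847 of the control value), and Polr1c, with 1206 reads in the LY500307 library and 1272 in the control library (0.893). The highest were Taf1d, with 4164 reads in the LY500307 library and 3148 in the control library, 1.24-fold higher, and Twistnb, with 1258 reads in the LY500307 library and 957 in the control library, 1.24-fold higher. Both were under 1.2-fold with the trend removed, at log2 ratios of 0.16 and 0.10.

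Regulators of TOP mRNAs and mTORC1 had a median of −0.061, with 10 of 16 below 0, 2 at least 1.2-fold lower (12.5%, against 15.9% of all genes) and 2 higher (12.5%, against 10.5%). Their median was −0.037 with the trend removed. Akt1s1, an inhibitory subunit of mTORC1, had 848 reads in the LY500307 library and 1152 in the control library, 1.44-fold lower, with a log2 ratio of −0.53 that became −0.16 with the trend removed. Eif4ebp1, a translation repressor that mTORC1 inactivates, had 3207 reads in the LY500307 library and 4041 in the control library, 1.34-fold lower, with a log2 ratio of −0.42 that became −0.47. Tsc1, which restrains mTORC1, had 585 reads in the LY500307 library and 454 in the control library, 1.21-fold higher, and Larp4, a poly(A) tail protector, had 2033 reads in the LY500307 library and 1589 in the control library, 1.21-fold higher. With the trend removed the log2 ratio of Tsc1 went from 0.28 to 0.27 and that of Larp4 from 0.27 to 0.024.

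Transcription factors linked to ribosomal protein genes had 5 of 10 below 0 and a median of −0.0067, which was −0.046 with the trend removed. Mycl had 43 reads in the LY500307 library and 59 in the control library, a fold of 0.686 (0.452 to 1.03), and Myc had 6701 reads in the LY500307 library and 7363 in the control library (0.857 of the control value). Gabpb1 had 604 reads in the LY500307 library and 512 in the control library (1.11), and its partner Gabpa 1906 reads in the LY500307 library and 1661 in the control library (1.08). With the trend removed the log2 ratio of Myc was −0.0019.

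Of 7 snoRNA host genes at or above the floor, which share the TOP motif but encode no protein, 3 lay below 0 and the median was 0.086. Epb41l4aos had 450 reads in the LY500307 library and 559 in the control library, 1.32-fold lower, and Snhg12 had 410 reads in the LY500307 library and 458 in the control library (0.843). Snhg5 had 1793 reads in the LY500307 library and 1502 in the control library (1.12), and Snhg1 2139 reads in the LY500307 library and 1822 in the control library (1.11). Of 4 genes around p53, 3 lay below 0, with a median of −0.12, which was −0.087 with the trend removed. Cdkn1a, the cell cycle inhibitor p21, had 447 reads in the LY500307 library and 496 in the control library (0.849), and Trp53 had 934 reads in the LY500307 library and 1009 in the control library (0.872). Mdm2 had 1167 reads in the LY500307 library and 1085 in the control library (1.01), and Zfas1 1340 reads in the LY500307 library and 1299 in the control library (0.971).

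**Figure D4:**
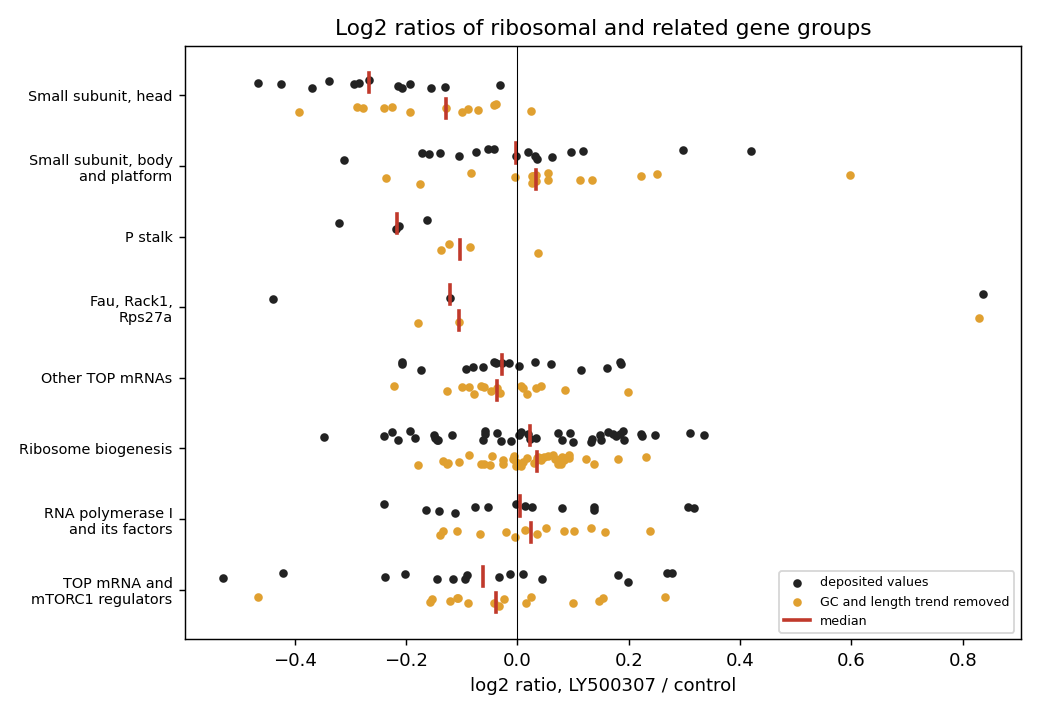
Log2 ratio of LY500307 to control value of each gene in 8 lists, as deposited (black) and with the GC and length trend removed (orange), with red bars at the medians. The 13 listed head genes of the small subunit lie below 0 as deposited, those of the body and platform lie on both sides, and the point far to the right is Rps27a.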

How the data were processed

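The deposited signal, 1 value per gene and library, was made by the authors, and per the submitters' processing notes CASAVA 1.8, Bowtie2 and the mouse build mm9 were used, with no role stated. Not given in the sources used here are the counter, the gene annotation, the use of strand, the handling of reads with several matches and the normalization. After division by the value of 1 read in each column, 99.96% of values in the LY500307 library and 99.95% in the control library lay within 0.01 of a whole number, so reads were recovered. With 1 library per group no count test was fitted and no p-value is given. The floor on the higher value was 33.0, percentile 40 of all values above 0, and the pseudocount was 1.03, percentile 5. Symbols, GC content, length and coding sequences came from GENCODE M21, and 19451 IDs matched. The shortest complete principal transcript of each gene was taken. For genes with no principal transcript the longest was taken, with complete ones preferred. Some of these transcripts may not be the main ones in 4T1 cells. Copies were found with BLAST 2.17.0. The GC and length trend was a robust regression on splines with 5 degrees of freedom, over nuclear genes, with values outside the 1st and 99th percentiles moved to them (statsmodels 0.14.6). Interval and trend code was checked on simulated data. Named were, per subunit, the 6 lowest and 4 highest ratios, all paralogs with parents, members below the floor, P stalk, 5S and unlisted ribosomal protein genes, and per other list the 2 lowest and 2 highest, except 1 gene outside the rule that is not reported here, as is 1 member, which enters the counts and medians but is not drawn in the plot of folds; other names were chosen after their values were seen. Members and lists were chosen with earlier results of these data known.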

Additional observations from a re-analysis of the deposited data

How the results depend on the processing

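Values are given for all members, then the large and then the small subunit. The median log2 ratios were −0.14, −0.17 and −0.12 as deposited. They were −0.11, −0.13 and −0.085 when scaled to total reads (CPM), −0.12, −0.15 and −0.10 when centred on the median of all genes, −0.12, −0.14 and −0.10 as means, and −0.064, −0.078 and −0.020 with the GC and length trend removed. Adding copies named with a -ps suffix gave −0.12, −0.12 and −0.13. The following were chosen after seeing the data. Adding copies found by sequence gave −0.14 for the large and −0.15 for the small subunit. Keeping members whose copies held under 10% of reads gave −0.16, −0.18 and −0.10, removing the trend with the longest transcripts −0.073, −0.080 and −0.054, and leaving out paralogs ending in l and Rps27rt −0.16 for all members and −0.13 for the small subunit. The large minus small subunit difference of −0.049 became 0.0037 with -ps copies, 0.0082 with copies by sequence, −0.038 as means, −0.074 with members of few copies, −0.027 with the longest transcripts and −0.032 without the paralogs. The median of the 3 paralogs was −0.061 with the longest transcripts. Members at least 1.2-fold lower numbered 18, but 5 with the trend removed and 9 with the longest transcripts; those higher numbered 2, but 1 with -ps copies, 1 of 50 among members of few copies (37 of these 50 lay below 0) and 4 with the longest transcripts. At 1.1-fold they numbered 41 lower (31% of all genes) and 4 higher (24.3%), and at 1.5-fold 0 and 0. The ratio of the shares of reads, 0.930, 0.921 and 0.945, was 0.927, 0.925 and 0.930 with copies by sequence, and 0.926 for the large and 0.931 for the small subunit with -ps copies. Among members past 1.2-fold, signs turned for Rps2 (−0.29 with -ps copies and −0.29 with copies by sequence), Rpl26 (0.065 with copies by sequence), Rpl36 (0.086 with the trend removed and 0.090 with the longest transcripts), and Rps10 (0.050) and Rps15 (0.057) with the longest transcripts. Of single members, 54 moved by more than their counting interval with the trend removed, 22 under CPM and 0 under either other pseudocount; the cause of these moves was not tested. With the longest transcripts Rps28 stood at −0.46 and Rpl37a at −0.031, against −0.29 and −0.32 with the shortest, so removal of the trend depends on which transcript is taken. No paired analysis was possible because each group holds 1 library. Differences within the counting interval were not detectable at this depth, as for Rpl24, Rpl36al, Rpl29 and Rpl21.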
